A study of Mus musculus with 10 samples.

Results

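The 5 genes described here are the protamine genes Prm1, Prm2 and Prm3 and the transition protein genes Tnp1 and Tnp2, families named for small basic proteins of the sperm nucleus. They were chosen by name, and all 5 were found among the 28125 genes of the scRNA-seq matrix and the 30670 genes of the scATAC-seq matrix. Each matrix gives 1 pooled value per gene in 13 cell populations. RNA and accessible chromatin had been read from the same nuclei of whole mouse testes, with 1 library per condition and assay. The mice were C57BL/6J wild type at 11, 17 and 25 days postpartum (dpp), Cre/+ at an age of 8 weeks, and Nfya-CKO of that same age. The Nfya-CKO mice lose part of Nfya, which encodes a subunit of the CCAAT-binding factor NFY, in male germ cells through Cre expressed from Stra8, and the Cre/+ mice carry the same Cre. No difference below has a replicate check, and no p-value is given.

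Protamines and transition proteins repackage the sperm genome. In round spermatids the genome is still wound on histones. As the nucleus elongates, histones are replaced, first largely by the transition proteins TNP1 and TNP2 and then by the protamines PRM1 and PRM2, which pack the DNA tightly. Their genes are transcribed in round spermatids, and the mRNAs are known for being stored without translation until the spermatid elongates. Prm3 lies in the same gene cluster and encodes a small acidic protein that is not thought to package DNA. None of the 5 products is known to act in spermatogonia or in somatic cells of the testis.

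By RefSeq for GRCm38.p6, the assembly of mm10, Tnp2, Prm3, Prm2 and Prm1 lie in this order on chromosome 16, all on the minus strand, within 8889 bases. Tnp2 spans chr16:10787935-10788655, Prm3 chr16:10790508-10790914, Prm2 chr16:10791377-10792105 and Prm1 chr16:10796332-10796823. Prm3 and Prm2 are separated by 462 bases. Tnp1 lies apart, at chr1:73015074-73015899, also on the minus strand. The methods of the study define promoter accessibility as mean coverage around a start site, without tying this to the deposited gene matrix. The region counted per gene is therefore not known here, and neighbours in the cluster may share fragments.

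The 120 bases before each start site are shown because the accessibility below concerns these genes and because the series asks about a factor that binds CCAAT. Capitals mark matches, on either strand, to the motifs searched. These were the TATA box as TATAAA, the letters CCAAT that NFY binds, the cyclic AMP response element as TGACGTCA, its shorter form TGACG (the first part of it) and a looser form of it, TGANNTCA, in which N is any base. The looser form was added after these sequences had been read and includes the full element.
Prm1 (chr16:10796824-10796943, minus strand): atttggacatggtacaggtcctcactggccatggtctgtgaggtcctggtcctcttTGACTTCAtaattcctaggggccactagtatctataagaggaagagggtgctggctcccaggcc
Prm2 (chr16:10792106-10792225, minus strand): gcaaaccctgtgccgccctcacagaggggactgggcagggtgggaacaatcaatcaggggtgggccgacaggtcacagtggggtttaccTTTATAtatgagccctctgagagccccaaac
Prm3 (chr16:10790915-10791034, minus strand): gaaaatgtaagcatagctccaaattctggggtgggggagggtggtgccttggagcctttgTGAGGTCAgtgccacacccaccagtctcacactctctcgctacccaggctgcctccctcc
Tnp1 (chr1:73015900-73016019, minus strand): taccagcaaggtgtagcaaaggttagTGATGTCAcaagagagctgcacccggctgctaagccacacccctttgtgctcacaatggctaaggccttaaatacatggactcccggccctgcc
Tnp2 (chr16:10788656-10788775, minus strand): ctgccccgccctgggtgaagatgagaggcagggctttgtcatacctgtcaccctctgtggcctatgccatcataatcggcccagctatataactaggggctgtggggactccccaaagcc

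In the full window of 250 bases before to 50 bases after the start, CCAAT was found in 1 of the 5 genes, in Prm3 at bases -150 to -146, further upstream than the stretch shown. Of 32851 RefSeq promoters, 37.4% held CCAAT in this window. TATAAA was found in Prm2, on the opposite strand at bases -31 to -26, against 13.6% of all promoters. Neither TGACG nor the full cyclic AMP response element TGACGTCA was found in any of the 5 windows, against 20.8% and 1.79% of all promoters. The looser TGANNTCA was found in Prm1 at bases -64 to -57, in Prm3 at -60 to -53 and in Tnp1 at -94 to -87, against 14.1% of all promoters. These are letter matches only.

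The 13 populations are the authors' own, named from marker genes: spermatogonia that are undifferentiated (undiff. SpG) or differentiating (diff. SpG), spermatocytes at preleptotene (pL), from leptotene to early pachytene (eL/L/Z and L/Z/eP), at mid to late pachytene (mP/lP) and at diplotene (D), round spermatids (RS), elongating spermatids (ES), Sertoli cells, cells of unknown type, other somatic cells, and the spermatogonia of the library labelled Nfya-CKO (Nfya-CKO SpG). Prm1 is among the markers the study shows for ES, so a high Prm1 level in ES is partly how that population was named. The round spermatid markers Acrv1, Spaca1, Tssk1 and Tssk2 summed to 10.4 UMIs per 10000 in RS and 5.202 in ES. Acrv1 (7.19 and 2.56) and Spaca1 (2.19 and 0.874) were lower in ES, while Tssk1 (0.595 and 0.760) and Tssk2 (0.475 and 1.004) were higher. Libraries held 3746 to 18039 cells and 30227701 to 64967271 UMIs. The Cre/+ library held 5639 RS and 1190 ES, the 25 dpp library 1676 RS and 3 ES, and the other libraries none. Nfya itself, summed over the whole gene, was at 1.11 UMIs per 10000 in Nfya-CKO SpG and 0.456 in undiff. SpG, so it was not lower under this label. The value also takes in reads from outside the deleted part and so does not check the deletion, and the library is called by its label throughout.

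Libraries shared cell barcodes. The library labelled Nfya-CKO held 5152 scRNA-seq cells, of which 3813 (74.0%) carried the barcode of a Cre/+ cell, while the Cre/+ and 25 dpp libraries shared 19 barcodes. In 2652 of these pairs the Nfya-CKO cell had UMIs at least 5 times fewer than its Cre/+ partner, in 1156 at least 5 times more, and 5 lay between. Wild-type libraries shared 621 to 853 barcodes with each other, and the scATAC-seq libraries shared 26 to 159 per pair. Among the Cre/+ cells, 709 of 1190 ES and 448 of 783 diff. SpG shared a barcode with a Nfya-CKO cell, and 675 of those ES were the shallower partner by 5 times or more. The matrices pool all cells of a population, so no level below could be recomputed without them, and their part in the levels was not tested.

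RNA of all 5 genes was highest in ES and next highest in RS. Of all genes, 28.0% were highest in 1 of these 2 populations. Values are mean UMIs per 10000 UMIs of a cell. Fold changes of RNA are on value + 0.1, which lowers the fold of weak genes.

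Prm1, the main protamine of mouse sperm with Prm2, was at 0.155 in undiff. SpG, 3.94 in diff. SpG, 0.00525 in pL, 0.0489 in eL/L/Z, 0.135 in L/Z/eP, 1.13 in mP/lP, 4.11 in D, 10.3 in RS and 40.8 in ES. Its level thus was lowest at preleptotene and higher in each later population, with diff. SpG standing out of the order near the level of D. Prm2, whose protein is made as a precursor and then cut, was listed at 0 in pL. It was at 0.0655 in undiff. SpG, 1.23 in diff. SpG, 0.0421 in eL/L/Z, 0.0890 in L/Z/eP, 0.441 in mP/lP, 1.47 in D, 3.79 in RS and 9.74 in ES. From pL to ES it was higher in each later population, as Prm1 was, and diff. SpG again lay just below D.

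Prm3 was at 0.0304 in undiff. SpG, 0.401 in diff. SpG, 0.00266 in pL, 0.0271 in eL/L/Z, 0.0894 in L/Z/eP, 0.187 in mP/lP, 0.586 in D, 1.97 in RS and 2.61 in ES. Its step from RS to ES was 1.31-fold, the smallest of the 5. Prm3 in RS was thus at 75.3% of its ES level, whereas the other 4 genes were at 22.5% to 38.9%.

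Tnp1, which encodes the smaller transition protein, was at 0.0915 in undiff. SpG, 1.501 in diff. SpG, 0.00309 in pL, 0.0376 in eL/L/Z, 0.142 in L/Z/eP, 0.508 in mP/lP, 1.71 in D, 4.37 in RS and 18.5 in ES. Tnp2, which encodes the other transition protein, was at 0.199, 3.21, 0.00659, 0.147, 0.375, 1.38, 4.16, 11.1 and 49.3 in the same populations. Both transition protein genes were also higher in each later population from pL to ES, with diff. SpG between mP/lP and D.

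**Figure D1:**
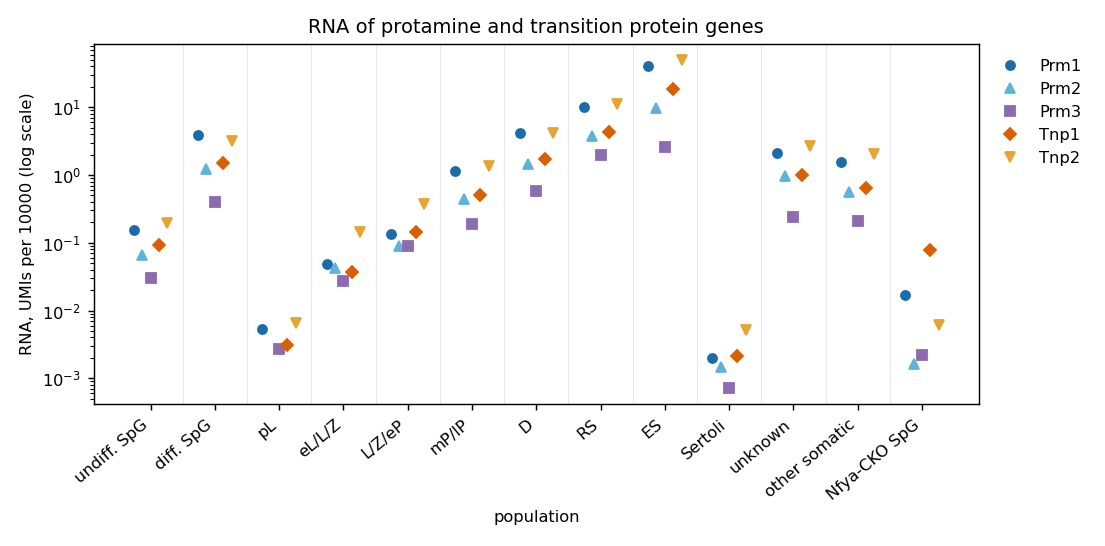
RNA of the 5 genes in UMIs per 10000 (vertical log axis) in the 13 populations, 1 point per gene and population. Prm2 in pL is listed at 0 and is not drawn. All 5 genes are highest in ES, and pL and Sertoli cells lie at 0.00659 or below.

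From RS to ES, RNA was 3.95-fold higher for Prm1, 2.53-fold for Prm2, 4.17-fold for Tnp1 and 4.41-fold for Tnp2. Thus 4 of the 5 genes were at least 2-fold higher in ES, against 10.0% of 15316 genes compared. The median of the 5 was 1.98 on the log2 scale, against 0.09 over all genes. Nearly all ES came from 1 library, since 99.6% were Cre/+ cells. Sertoli cell markers moved with ES too: the 5 markers Sox9, Wt1, Cldn11, Rhox5 and Clu summed to 39.9 UMIs per 10000 in ES and 4.04 in RS, and none of them was at 0 in ES. The Leydig cell markers Cyp17a1, Star, Insl3, Hsd3b1 and Cyp11a1 summed to 5.70 in ES and 0.786 in RS, and the macrophage markers Csf1r, C1qa and Cd74 to 0.764 and 0.228. The part of this in the values was not tested. From mP/lP to D, all 5 genes were at least 2-fold higher (2.39-fold to 3.42-fold), against 5.42% of 13845 genes. The round spermatid markers moved with them, from a sum of 1.04 in mP/lP to 3.11 in D. Cre/+ cells made up 27.9% of mP/lP and 52.9% of D, and by the separate scATAC-seq naming of the authors 3.87% and 19.9% of the paired nuclei were called RS. Their part in this step was not tested.

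Accessibility was highest in RS, not in ES, for all 5 genes. Of all genes, 22.0% were highest in RS. Accessibility values are scaled to a sum of 1000000 per population, the mitochondrial genome included. The mitochondrial genome took from 31.2% of this sum in pL to 64.5% in other somatic cells, so small steps between populations depend on it. Accessibility values are set against other populations for the same gene and not between genes.

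Prm1 accessibility was 7.89 in RS, 5.61 in diff. SpG and 3.79 in D. In the other 10 populations it lay between 0.649 (Nfya-CKO SpG) and 2.35 (mP/lP), and ES, at 1.70, was within that range. Prm2 was at 1.24 in undiff. SpG, 5.92 in diff. SpG, 1.52 in pL, 2.58 in eL/L/Z, 3.06 in L/Z/eP, 4.24 in mP/lP, 8.33 in D, 23.3 in RS and 10.5 in ES. It was thus higher at each step from pL to RS.

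Prm3 was at 2.75 in undiff. SpG, 14.0 in diff. SpG, 2.84 in pL, 3.96 in eL/L/Z, 5.10 in L/Z/eP, 11.3 in mP/lP, 20.3 in D, 54.1 in RS and 23.1 in ES. Its RS level stood 19.7-fold above undiff. SpG and that of Prm2 18.8-fold, or 14.7-fold and 10.8-fold with a pseudocount of 1. Over Sertoli cells, RS stood 56.7-fold higher for Prm3, 41.8-fold for Tnp1, 18.7-fold for Prm2, 12.8-fold for Tnp2 and 3.63-fold for Prm1. Tnp2 was at 8.17 in undiff. SpG, 16.8 in diff. SpG, 8.62 in pL, 8.79 in eL/L/Z, 8.18 in L/Z/eP, 13.2 in mP/lP, 25.0 in D, 48.3 in RS and 19.0 in ES. On this scale it lay between 8.18 and 8.79 from pL to L/Z/eP and was higher from mP/lP to RS, while diff. SpG stood above mP/lP. The mitochondrial share was 31.2% in pL, 45.4% in eL/L/Z, 63.8% in L/Z/eP, 35.0% in diff. SpG and 60.3% in mP/lP. Without that share Tnp2 would not be level from pL to L/Z/eP, and diff. SpG would lie below mP/lP.

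Tnp1 departed from the others in spermatogonia. It was at 7.11 in undiff. SpG and 10.3 in diff. SpG, but at 2.48 in pL, 2.27 in eL/L/Z and 3.28 in L/Z/eP. It then stood at 5.76 in mP/lP, 11.6 in D, 32.2 in RS and 15.97 in ES. In pL, Tnp1 was at 0.348 of its level in undiff. SpG, whereas the other 4 genes were at 1.03 to 1.23 of theirs.

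**Figure D2:**
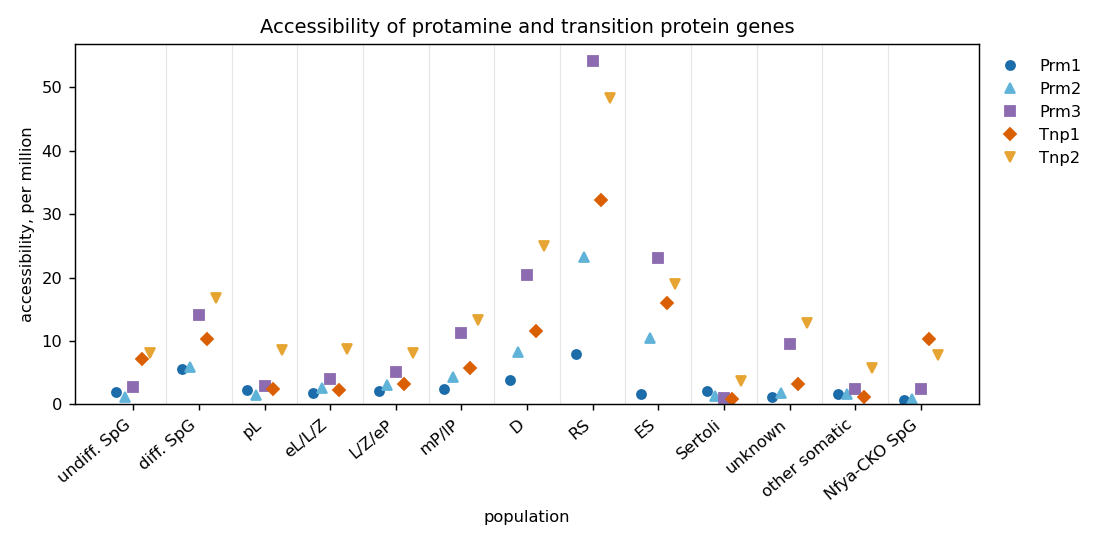
Accessibility of the 5 genes on a scale of 1000000 per population (vertical axis, linear from 0) in the 13 populations, 1 point per gene and population. Every gene has its highest point in RS, and the points in diff. SpG lie above those in undiff. SpG.

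From undiff. SpG to RS, accessibility was 3.94-fold (Prm1) to 19.7-fold (Prm3) higher, so all 5 genes passed 2-fold, against 27.6% of 30280 genes. In D, 3 of 5 were at least 2-fold above undiff. SpG (Prm2, Prm3 and Tnp2), against 17.9% of 30282 genes. Prm1 was at 1.89-fold and Tnp1 at 1.63-fold. Of the 3029 paired D nuclei, 43.7% were called pachytene and 19.9% RS on scATAC-seq. Scaling without mitochondrial genes raised the median log2 ratio of all genes by 0.21 in this comparison and brought Prm1 to 2.19-fold, so that 4 of 5 passed, against 22.0% of all genes.

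From RS to ES, accessibility of all 5 genes was at least 2-fold lower, against 20.3% of 28192 genes. The ratios of ES to RS were 0.216 for Prm1, 0.452 for Prm2, 0.426 for Prm3, 0.496 for Tnp1 and 0.394 for Tnp2. Without mitochondrial genes Tnp1 was at 0.527 and no longer passed, against 18.4% of all genes that did. The ES value rests on 124 nuclei, 10.4% of the 1195 ES of the RNA data, against 66.0% for RS. By the authors' separate naming on scATAC-seq, 40.3% of these 124 nuclei were called pachytene, 25.8% RS and 16.1% Sertoli cells. Of the paired RS nuclei, 65.3% were called RS.

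Set against RS, the RNA and the accessibility of the 5 genes did not follow the same course. In ES the median RNA was at 398% of RS and the median accessibility at 42.6%. In D both were close to each other, at 39.0% and 37.6%. In undiff. SpG the median RNA was at 1.73% and the median accessibility at 16.9%. Low accessibility values include whatever background the assay has, so the percentages of the 2 assays are not on a common zero.

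**Figure D3:**
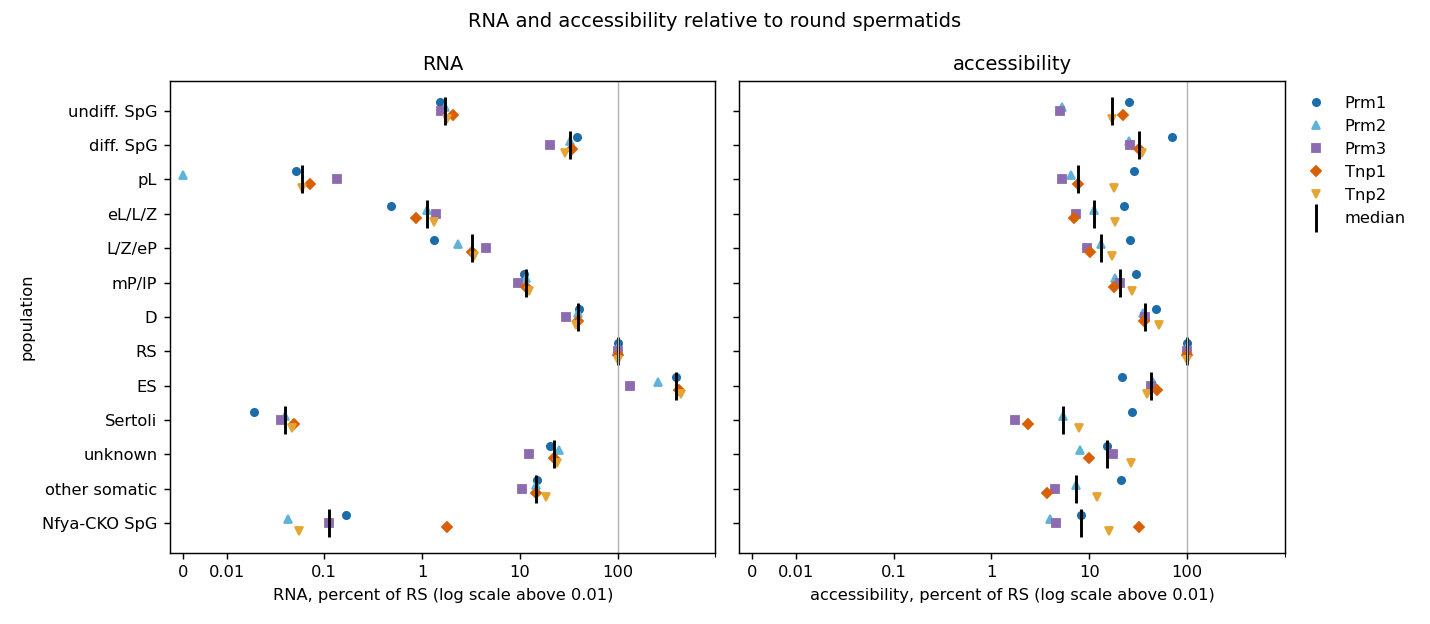
RNA (left) and accessibility (right) of the 5 genes as percent of the level of the same gene in RS, on axes that are logarithmic above 0.01, with the median of the 5 genes as a bar. The median RNA spans from under 0.1% in pL and Sertoli cells to over 100% in ES, while accessibility is highest in RS.

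Outside spermatids, the summed RNA of the 5 genes differed between populations by over 3 orders of magnitude. The sum was 121 UMIs per 10000 in ES and 31.5 in RS. It was 12.04 in D, 10.3 in diff. SpG, 6.95 in cells of unknown type, 4.98 in other somatic cells, 3.64 in mP/lP, 0.830 in L/Z/eP, 0.541 in undiff. SpG and 0.302 in eL/L/Z. It was 0.105 in Nfya-CKO SpG, 0.0176 in pL and 0.0116 in Sertoli cells. As percent of ES, non-spermatid populations thus ran from 0.00956% (Sertoli cells) to 9.95% (D).

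The populations with the lowest sums came from libraries that held no spermatids. Of pL cells, 59.3% were of the 11 dpp and 38.2% of the 17 dpp library. Of Sertoli cells, 87.8% and 11.7% were of these libraries. In pL the 5 genes together amounted to about what 28 UMIs over the whole population would give.

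Over the 11 non-spermatid populations, the summed RNA was ordered much like the share of cells from the Cre/+ library, with a Spearman's rank correlation of 0.92. The populations share the same 5 libraries and differ in cell type at once, so this is a description with no p. With the share counted over Cre/+ and 25 dpp cells together, it was 0.73. Over the 7 germ cell populations alone it was 0.93. With the Cre/+ share taken over cells whose barcode was in 1 library only, an alternative chosen after seeing the data, it was 0.87.

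**Figure D4:**
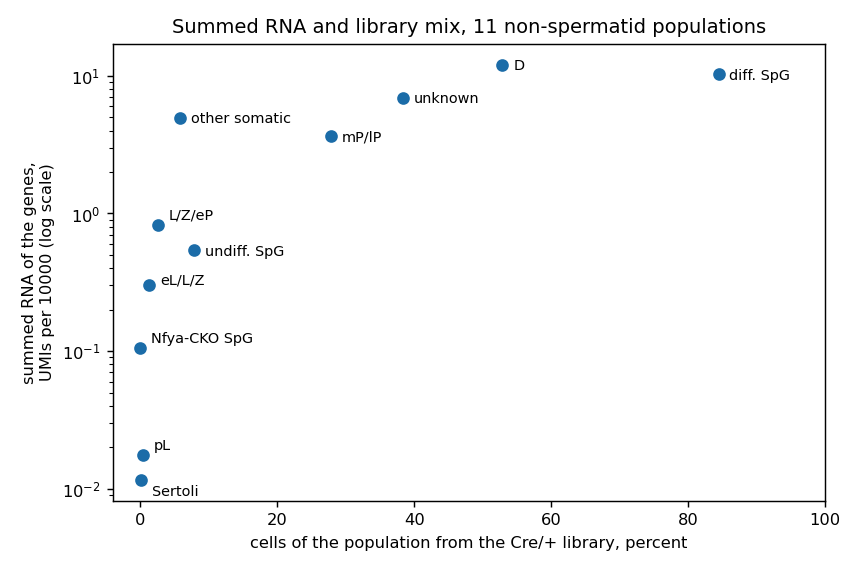
Summed RNA of the 5 genes in UMIs per 10000 (vertical log axis) against the percent of cells that came from the Cre/+ library (horizontal axis), 1 point for each of the 11 non-spermatid populations. Sertoli cells and pL lie at the lower left, D and diff. SpG at the upper right, and other somatic cells, with 5.80% Cre/+ cells, lie at 4.98.

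Diff. SpG stood apart from the cells before and after them in both assays. RNA of all 5 genes was at least 2-fold above undiff. SpG, from 3.84-fold for Prm3 to 15.8-fold for Prm1, against 10.2% of 14264 genes. Prm3 was below 0.05 in undiff. SpG and passed the limit on low values only through diff. SpG. Their RNA was at 20.4% (Prm3) to 38.4% (Prm1) of the RS level. Accessibility was 2.80-fold higher for Prm1, 4.78-fold for Prm2, 5.11-fold for Prm3 and 2.05-fold for Tnp2, so 4 of 5 passed 2-fold against 10.9% of 30133 genes, with Tnp1 at 1.45-fold. Without mitochondrial genes, which lowered the median log2 ratio of all genes by 0.13, Tnp2 was at 1.87-fold and 3 of 5 passed, against 9.02% of all genes.

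Of the 927 diff. SpG, 783 were Cre/+ cells, whereas 102 of the 1292 undiff. SpG were. Of those 783, 448 shared a barcode with a Nfya-CKO cell, and 143 of these shared it with Nfya-CKO SpG that had at least 5 times their UMIs. The other 305 shared it with other somatic cells of that library, and there the diff. SpG had at least 5 times the UMIs. The markers Kit and Dmrtb1, which mark differentiating spermatogonia, were at 1.56 and 1.04 in this population, and at 0.548 and 0.133 in undiff. SpG. The round spermatid markers Acrv1, Spaca1, Tssk1 and Tssk2 moved with the 5 genes, with a sum of 2.07 against 0.326 and none at 0. Leydig cell markers summed to 1.27 against 0.208 and macrophage markers to 0.315 against 0.0413. Of the Leydig sum, Insl3 was 0.893 against 0.0640, while Hsd3b1 (0.0131 against 0.0145) and Cyp11a1 (0.0286 against 0.0364) were lower. Sertoli cell markers were near level, at 4.81 against 4.44. The peritubular markers Acta2 and Myh11 summed to 0.0617 against 0.133, and the endothelial markers Pecam1 and Vwf to 0.105 against 0.165. By the scATAC-seq naming, 51.1% of the 760 paired nuclei were called eL/L/Z, 19.1% undiff. SpG, 18.2% pachytene and 0.263% RS. The part of library, barcodes or naming in these values was not tested.

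Other somatic cells held far more RNA of the 5 genes than Sertoli cells, while their accessibility was below 22% of the RS level for each gene. They were at 1.54 for Prm1, 0.557 for Prm2, 0.208 for Prm3, 0.637 for Tnp1 and 2.03 for Tnp2, whereas Sertoli cells were at 0.00198, 0.00149, 0.000718, 0.00216 and 0.00523. All 5 genes passed the limit on low values only through other somatic cells, so nothing is read from all of them being at least 2-fold higher, which 17.8% of 13697 genes were. Accessibility in other somatic cells was 1.69 for Prm1, 1.71 for Prm2, 2.43 for Prm3, 1.19 for Tnp1 and 5.79 for Tnp2. Only Prm3, at 2.54-fold, was at least 2-fold above Sertoli cells, against 7.97% of 30018 genes. Without mitochondrial genes the median log2 ratio of all genes rose by 0.46, and 3 of 5 passed (Prm3, Tnp1 and Tnp2), against 15.1%.

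Of the 5883 other somatic cells, 4633 were from the library labelled Nfya-CKO, which held no RS or ES, and 341 were Cre/+ cells. The 5 Leydig cell markers summed to 218 UMIs per 10000 in these cells, 5.70 in ES and 0.371 in Sertoli cells. The 4 round spermatid markers moved with the 5 genes, at 1.09 against 0.0323 in Sertoli cells. Accessibility was paired for 1942 of the 5883 cells (33.0%), of which 53.5% were called Sertoli cells on scATAC-seq, so most cells behind the RNA values had no accessibility profile paired with them. Had the whole summed RNA of the 5 genes been in the 341 Cre/+ cells, their mean would be 85.9, or 71.0% of the ES level. A further 513 of the 5883 cells were from the 25 dpp library, which also held RS. Which cells held this RNA was not tested. Of the 4633 cells, 3628 (78.3%) carried the barcode of a Cre/+ cell, and in 640 of them that Cre/+ cell was a spermatid with at least 5 times their UMIs.

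Nfya-CKO SpG came from the same library and had far less of this RNA. Prm1 was at 0.0171, Prm2 at 0.00163, Prm3 at 0.00219 and Tnp2 at 0.00605, each well below other somatic cells. At mean depth these levels amount to 16.7, 1.59, 2.14 and 5.92 UMIs over the whole population, so no fold to other somatic cells is given for them. Tnp1 was at 0.0783, or 76.6 UMIs, and other somatic cells, at 0.637, were 8.13-fold higher without a pseudocount. Of the 491 Nfya-CKO SpG, 175 (35.6%) shared a barcode with a Cre/+ cell. Whether barcodes account for the difference between the populations was not tested.

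The mix of the 5 transcripts was much alike in most populations. The shares below are of the summed UMIs and not per length, and each is compared between populations for the same gene. In RS the sum was made up of 32.6% Prm1, 12.03% Prm2, 6.25% Prm3, 13.9% Tnp1 and 35.2% Tnp2. In ES the shares were 33.7%, 8.06%, 2.16%, 15.3% and 40.7%, so that Prm2 and Prm3 took smaller parts. The part of the mix that would have to be moved to match RS was 2.06 percentage points in D, 2.77 in mP/lP, 4.60 in undiff. SpG, 5.12 in cells of unknown type, 5.60 in other somatic cells, 6.46 in diff. SpG and 8.06 in ES.

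The mix differed more in eL/L/Z (17.8 points) and L/Z/eP (17.7 points). In both Prm1 took 16.2%, and Tnp2 took 48.5% and 45.2%. Of these cells, 42.6% and 93.5% were from the 25 dpp library, whose spermatids were nearly all RS. Of mP/lP, at 2.77 points from RS, 70.7% were from this library too. The part of library in the mix was not tested. In Nfya-CKO SpG, Tnp1 alone took 74.4% of the sum and the distance from RS was 60.5 points. The other 4 genes rest on 1.59 to 16.7 UMIs each there, and with 0.1 added to each gene the share of Tnp1 was 29.5%. The values for pL and Sertoli cells rest on so little RNA that their mix was not read.

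**Figure D5:**
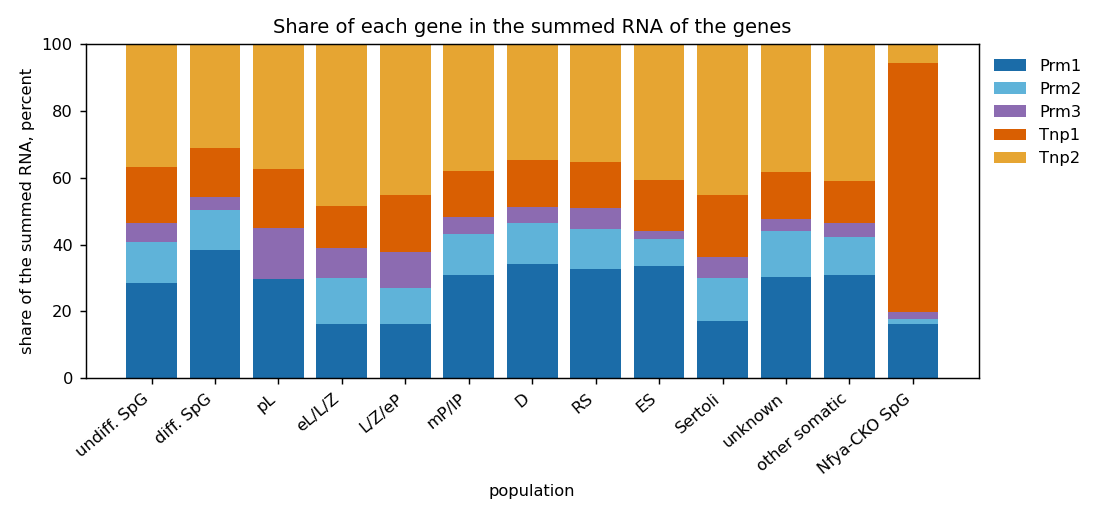
Share of each of the 5 genes in their summed RNA (stacked bars, percent) in the 13 populations. Bars are alike in most populations, Prm1 takes 16.2% in eL/L/Z and L/Z/eP, and Tnp1 takes 74.4% in Nfya-CKO SpG.

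The series asks what loss of NFYA does to spermatogonia, and the 5 genes were therefore compared between Nfya-CKO SpG and undiff. SpG. Undiff. SpG were pooled from wild-type and Cre/+ mice of several ages, so that library, age and genotype cannot be told apart. Prm1 RNA was at 0.0171 in Nfya-CKO SpG against 0.155, and Tnp2 RNA at 0.00605 against 0.199. With 0.1 added the ratios to undiff. SpG were 0.459 and 0.355, without a pseudocount 0.110 and 0.0304, and with 1 added 0.881 and 0.839. In Nfya-CKO SpG these levels amount to only 16.7 and 5.92 UMIs at mean depth. Of all genes, 3.40% of 13954 were at least 2-fold lower. Prm1 and Tnp2 passed the limit of a mean of 0.05 only through undiff. SpG, so nothing is read from their count. Tnp1, at 0.0783 against 0.0915, was at 0.931. Prm2 and Prm3 were below the limit in this comparison, with 0.00163 and 0.00219 in Nfya-CKO SpG against 0.0655 and 0.0304. The round spermatid markers moved the same way, with a sum of 0.128 in Nfya-CKO SpG against 0.326 and none at 0. Of markers of other cells, the 5 Leydig cell markers summed to 49.3 in Nfya-CKO SpG against 0.208 in undiff. SpG, and the macrophage markers to 0.870 against 0.0413. The 5 Sertoli cell markers summed to 25.8 against 4.44, of which Clu alone was 22.8 against 2.50, while Sox9 was at 0.820 against 0.531. The peritubular markers Acta2 and Myh11 were near level, at 0.156 against 0.133. No Nfya-CKO SpG but 7.89% of undiff. SpG were Cre/+ cells. Without a pseudocount the sum of the 5 genes was at 0.194 of undiff. SpG, and with a pseudocount of 1 at 0.717. Tnp1 made up 74.4% of the sum in Nfya-CKO SpG, and without Tnp1 the sums were 0.0270 and 0.450.

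Accessibility of 1 of the 5 genes was at least 2-fold lower, against 3.23% of 29939 genes. This was Prm1, at 0.649 against 2.002 (0.324-fold). With a pseudocount of 1 it was at 0.549 and no longer passed. Prm2 was at 0.745 of undiff. SpG, Prm3 at 0.894 and Tnp2 at 0.949. Tnp1 was higher, at 10.3 against 7.11 (1.45-fold). Without mitochondrial genes, which raised the median log2 ratio of all genes by 0.14, Tnp2 was at 1.04 and Prm1 at 0.356, against 2.56% of all genes at least 2-fold lower.

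Genes that act with protamines and transition proteins were taken from 4 lists. Their counts stand against the shares of all genes: 10.0% at least 2-fold higher and 11.3% at least 2-fold lower in RNA from RS to ES, and 27.6% at least 2-fold higher in accessibility from undiff. SpG to RS. Of 8 genes for transcription in spermatids, 0 were at least 2-fold higher in ES than in RS and 1 was at least 2-fold lower. This was Crem, the cyclic AMP response factor that drives many spermatid genes, at 3.80 in RS and 1.73 in ES. Fhl5, a partner of CREM, was at 1.62 in RS and 1.05 in ES, and Rfx2, a factor for ciliary and spermatid genes, was highest of the list by this ratio, at 2.09 and 3.01. The median of the 8 was -0.39 on the log2 scale against 0.09 over all genes. Fhl5 accessibility was 20.8-fold higher in RS than in undiff. SpG, the only one of the 8 at 2-fold or more.

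Of 18 genes for the exchange of histones, 15 passed the limit on RNA, and 3 were at least 2-fold higher and 2 lower in ES than in RS. Tssk6, a kinase needed for histone removal, was at 0.956 in RS and 5.08 in ES. H1fnt, a linker histone of elongating spermatids, was at 0.788 and 3.25, and H2al2a, a histone variant that loads transition proteins, was at 0.693 and 2.44. Lowest by this ratio were Nutm1, a partner in histone acetylation (0.739 in RS and 0.203 in ES), and Camk4, a kinase that acts on PRM2 (1.43 and 0.486). Accessibility of 8 of 18 was at least 2-fold higher in RS than in undiff. SpG, against 27.6% of all genes, with Hils1, another linker histone of spermatids, at 23.1-fold.

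Of 11 genes for storage and translation of the mRNAs, 10 passed the limit on RNA and 0 were 2-fold apart between RS and ES in either direction. Ybx2, which binds stored mRNAs, was at 35.3 in mP/lP, 15.7 in RS and 29.5 in ES. Fxr1, an RNA-binding protein that turns on translation in spermatids, was at 2.55 in RS and 4.77 in ES. Lowest by this ratio was Piwil1, a protein of the piRNA pathway, at 2.56 and 2.20. In accessibility 0 of 11 were at least 2-fold higher in RS than in undiff. SpG.

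The 17 other spermatid transcripts were closest to the 5 genes. They were listed as spermatid genes, so that all 17 were highest in RS or ES, against 28.0% of all genes, follows largely from the choice. Of the 17, 8 were at least 2-fold higher and 2 at least 2-fold lower in ES than in RS. Highest by this ratio was Cabs1 (1.69 and 11.0), which encodes a calcium-binding sperm protein. Acrv1, an acrosomal protein, was lowest by this ratio, at 7.19 in RS and 2.56 in ES. Their RNA in diff. SpG was at a median of 28.5% of RS. In accessibility 14 of 17 were at least 2-fold higher in RS than in undiff. SpG, and 9 of 17 in diff. SpG, against 27.6% and 10.9% of all genes.

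The genes whose RNA was most like the sum of the 5 over the 13 populations, by Pearson's r on log2(value + 0.1), were Odf1 (0.990), Gm5617 (0.984), Gapdhs (0.983), Spata18 (0.980) and Smcp (0.979), out of 10381. Odf1, a protein of the outer dense fibres of the tail, was at 0.149 in undiff. SpG, 2.36 in diff. SpG, 4.71 in RS and 16.03 in ES. Over the 9 control germ cell populations alone only Odf1 remained among the first 5.

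Neighbours on chromosome 16 were near level in accessibility between undiff. SpG and RS. The only neighbour of Tnp1 in the matrix, a gene of low accessibility, was not. Socs1, an inhibitor of cytokine signalling whose nearer end lies 3119 bases from the start of Tnp2, was at 67.2 in undiff. SpG, 80.9 in RS and 51.6 in ES. Clec16a and Rmi2 were at 1.17-fold each in RS over undiff. SpG, and Socs1 at 1.20-fold. On chromosome 1, the lncRNA gene 1700027A15Rik starts 137 bases from the start of Tnp1. Its RNA was at 0.838 in RS and 1.22 in ES, and in Nfya-CKO SpG it was at 0.0165 against 0.0369 in undiff. SpG. Its accessibility was 3.37-fold higher in RS than in undiff. SpG (2.27 against 0.674), where 27.6% of all genes were at least 2-fold higher. It was highest in ES, at 7.29, a value that rests on 124 nuclei.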

How the data were processed

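Nuclei had been profiled by BD Rhapsody for RNA and accessible chromatin together. The authors aligned the RNA reads to mm10 with STAR 2.7.10b, collapsed UMIs, and used Seurat 5.2.1 and DoubletFinder to leave out doublets and cells below 500 genes or with 5% or more of their UMIs from mitochondria. For scATAC-seq they used BWA 0.7.12 and ArchR 1.0.3, and cells needed 1000 fragments and a TSS score of 4. Gene matrices were deposited as the natural log of 1 plus a mean that sums to 10000 per population. The form was read from the values. The smallest RNA values lie below 1 UMI of the pooled total in each of the 13 populations (ES: 0.000241 against 0.00260), as a mean over cells gives and pooled UMIs cannot. For its coverage tracks the study merged all fragments of a cell type and scaled them by the mapped total. It defines promoter accessibility as mean coverage on that scale. The study does not tie the deposited accessibility matrix to these steps, so how the values of that matrix were averaged is not known here. The deposited cell tables hold counts of UMIs and fragments per cell, and, from the authors' run of ArchR, the TSS enrichment ratio, which was left aside. These tables have another 22 columns that played no part, and 49 of 45250 scRNA-seq cells had no library name.

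The log was undone in Python 3.11.15 with pandas 2.3.3 and numpy 2.4.6 (correlations: scipy 1.17.1, plots: matplotlib 3.10.9). Ratios of RNA used value + 0.1 and were counted where the 2 populations had a mean of 0.05 or more, accessibility for genes above 0 in both. Counts at 2-fold go by size alone. The RNA counting code was run on simulated counts of well-expressed genes with large changes. That run checks the code and says nothing of weak genes, shallow populations or accessibility. Depth limits low values: 1 UMI at mean depth is 0.000625 per 10000 in pL and 0.00260 in ES. From each list, genes with the highest and lowest value of a comparison were named. Neighbours were RefSeq genes within 100 kb of a member's start, and genes compared for likeness had a mean of 0.2 or more. Kept meant within 1.5-fold, or within 0.1 for a correlation. The genes and lists were chosen with earlier results of these data known.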

Additional observations from a re-analysis of the deposited data

How the results depend on the processing

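No paired analysis was possible because each condition is 1 library and no test was run. Of 142 alternative values over 46 results, 93 were kept, 48 moved by over 1.5-fold (a correlation by over 0.1) and 1 crossed a ratio of 1. The one that crossed was Tnp2 accessibility in Nfya-CKO SpG over undiff. SpG, at 1.04 without mitochondrial genes. Some of the kept values could hardly move, since mitochondrial genes held only 0.392% to 1.37% of the RNA of a population. Leaving out the limit on low values could not change the count of genes higher in ES. Summed RNA in diff. SpG was at 13.5% of the mean of RS and ES, against 8.496% of ES. Spearman's rank correlation with the Cre/+ share was 0.73 with 25 dpp cells added, and Pearson's r on log10(value + 0.1) was 0.79. A pseudocount of 0.1 brought the share of Tnp1 in Nfya-CKO SpG to 29.5%. The median ratio of accessibility in RS was 18.7 over Sertoli cells, against 5.91 over undiff. SpG. Against diff. SpG, Nfya-CKO SpG were at 0.175 in median accessibility and 0.0198 in summed RNA. Summed RNA against undiff. SpG was at 0.194 without a pseudocount and 0.717 with a pseudocount of 1, against 0.320 with 0.1 added. Genes higher in ES than in RS numbered 3688 at 1.5-fold and 473 at 3-fold, against 1538 at 2-fold. Of the 5 most alike genes, 1 remained over germ cell populations and 0 by Spearman's rank correlation, where 7 genes tied at 1. The cause of these changes was not tested. The ES accessibility rests on 124 nuclei.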
